A study of Mus musculus with 4 samples.

Results

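The mouse Fc receptor genes examined here are Fcgr1, Fcgr2b, Fcgr3, Fcgr4, Fcer1g and Fcgrt, 6 of the 22367 protein-coding genes of the GENCODE M1 annotation. Runx3-bound regions, called peaks, were assigned to a gene when the peak centre lay in the gene body or within 20 kb of it. This gave 13 of the 15121 peaks in the list, and 5 of the 6 genes had at least 1. Peaks were measured by Runx3 ChIP-seq, the sequencing of DNA fragments recovered with an antibody to the transcription factor Runx3, in CD11chiMHCII+CD4+ dendritic cells (DC) sorted by FACS from mouse spleen. There were 2 Runx3 immunoprecipitates, made with a home-made polyclonal antibody, and 2 input controls of whole cell extract. Cells were pooled from about 15 mice. The strain was labelled C57BL/6 for 3 samples and C57BL/7 for 1 input control. No group had a changed genotype or a treatment, and no ages were in the labels. All 4 samples entered a single call of peaks, so no value below has a spread between replicates and no test was possible. Each peak has a score written by the MACS2 peak caller, in a unit that is not stated, which ranked peaks within this list only. The list held binding and not expression, so the identity of the sorted cells could not be checked against marker genes.

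Fc receptors bind the constant part of antibodies and let a DC take up or respond to antigen held in an immune complex. Fcgr1, Fcgr3 and Fcgr4 encode activating receptors for IgG, which pass their signal through the common gamma chain encoded by Fcer1g and its ITAM, a tyrosine motif read by the kinase Syk. Fcgr2b encodes the inhibitory IgG receptor, whose ITIM recruits phosphatases, and Fcgrt encodes the neonatal Fc receptor, which pairs with beta-2 microglobulin and recycles IgG inside cells. RUNX proteins recognise the DNA hexamer TGTGGT, and less often TGCGGT, in either orientation.

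The sequences at the starts of Fcgr4 and Fcer1g carry the binding that lay closest to the start of a receptor gene, and are given on the plus strand of mm9. Capitals mark TGTGGT or its reverse complement ACCACA. Fcer1g is transcribed from the minus strand, so its start lies to the left of the upstream stretch printed. For the part of each peak that lay past the start, only the 26 bases around the hexamer are given. Of the part before the start of Fcer1g, only the 200 bases next to the start are given.
Fcgr4, centre of the upstream peak, chr1:172947774-172947973: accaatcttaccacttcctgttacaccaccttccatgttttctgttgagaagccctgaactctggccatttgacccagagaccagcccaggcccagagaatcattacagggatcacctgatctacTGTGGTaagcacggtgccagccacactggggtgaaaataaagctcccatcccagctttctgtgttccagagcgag
Fcgr4, start peak before the gene, chr1:172948882-172949050: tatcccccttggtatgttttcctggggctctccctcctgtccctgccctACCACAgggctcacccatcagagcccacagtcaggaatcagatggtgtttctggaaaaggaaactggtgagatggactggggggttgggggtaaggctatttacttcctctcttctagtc
Fcgr4, start peak past the gene start, chr1:172949070-172949095: tccggatatcTGTGGTgacattttct
Fcer1g, start peak past the gene start, chr1:173164456-173164481: cagttccctgACCACAgttccctcct
Fcer1g, start peak before the gene, chr1:173164497-173164696: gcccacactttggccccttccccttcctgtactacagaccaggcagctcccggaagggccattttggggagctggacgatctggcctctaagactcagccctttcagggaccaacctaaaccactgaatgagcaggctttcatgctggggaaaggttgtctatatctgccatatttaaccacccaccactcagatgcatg

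The peaks were spread unevenly over the 6 genes. Fcgr4 had 4 peaks, Fcgr1, Fcer1g and Fcgrt had 3 each, Fcgr3 had 2, and Fcgr2b had none. The 2 peaks of Fcgr3 were also in reach of Fcgr4, so the 13 peaks are distinct. Beside the 5 of 6 receptor genes with a peak, 50.4% of all protein-coding genes had one under the same rule, and 54.1% of those whose body was as long as the members', 4794 to 15990 bp. At least 3 peaks were found at 4 of the 6 genes and at 14.0% of all protein-coding genes. With 6 genes and no replicate, these shares are a description.

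The scores of the receptor peaks lay mostly in the lower part of the list. They ran from 4.48 to 36.9 with a median of 7.20, which was the lower quartile of all peaks, whereas the list ran from 1.33 to 309 with a median of 12.1 and an upper quartile of 23.2. The list median was reached by 4 of the 13 peaks, 2 of them at Fcgr1 and 2 at Fcer1g, and by 50.0% of all peaks. Only 1 receptor peak, downstream of Fcer1g, reached the upper quartile, as did 25.4% of the list. Of the genes, 1 of 6 (16.7%) had a peak at or above the upper quartile within 20 kb, and 20.2% of all protein-coding genes did.

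**Figure D1:**
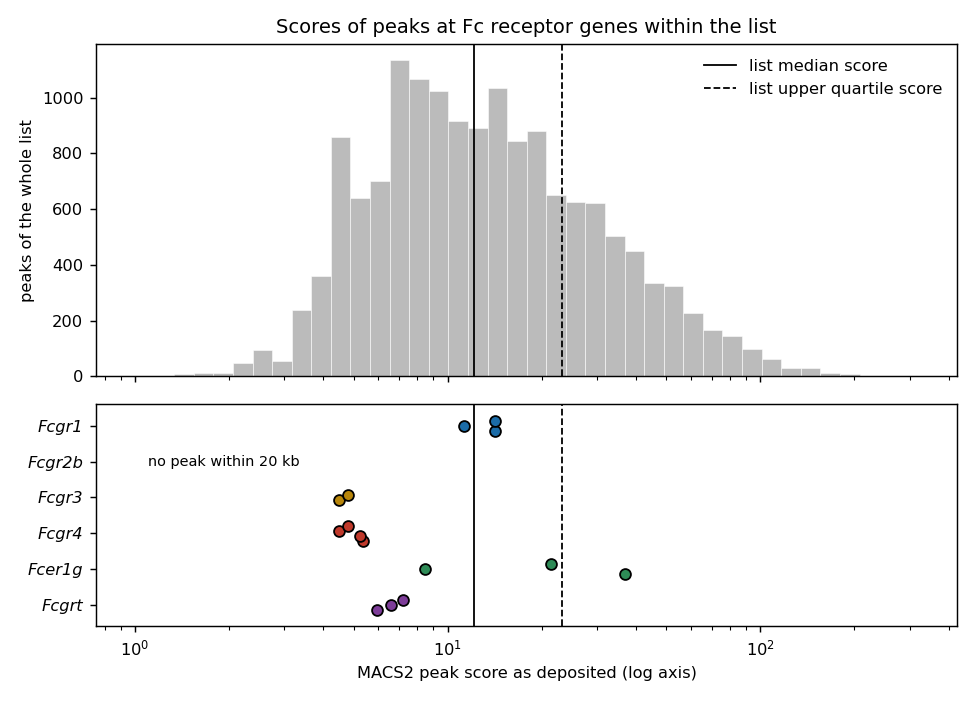
The upper panel gives the number of peaks of the whole list by MACS2 score on a log axis, and the lower panel gives each receptor peak as a point, 1 line per gene, with a peak in reach of 2 genes drawn for both. The points of Fcgr3, Fcgr4 and Fcgrt lie between 4.48 and 7.20, below the list median of 12.1, and the point at 36.9 of Fcer1g lies beyond the upper quartile of 23.2.

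Fcer1g (ENSMUSG00000058715.6, chr1:173159703-173164496, minus strand), the signalling chain shared by the activating receptors, had the highest scores of the family. Its start peak, chr1:173164294-173164916, had a score of 21.5, higher than 72.0% of the list, and its centre lay 109 bp upstream of the annotated start. The 1 TGTGGT in this 623 bp peak lay past the start, 137 bp from the peak centre. The peak also held GAGGAAGT, the sequence read by ETS factors such as PU.1, outside the stretches printed above. A peak with a score of 8.47 lay in intron 1, at chr1:173161887-173162374, with its centre 2366 bp past the start and 2 hexamers. This was the only 1 of the 13 peaks centred inside a receptor gene body. Counted by gene, 1 of the 6 receptor genes and 23.2% of all protein-coding genes had such a peak.

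The strongest peak in reach of a receptor gene, chr1:173152576-173152963 with a score of 36.9, lay 6934 bp past the 3′ end of Fcer1g. Its centre was 124 bp upstream of the start of Tomm40l, which encodes a protein of the mitochondrial outer membrane import machinery. It held neither TGTGGT nor TGCGGT. Position alone does not tie this peak to Fcer1g, and 4 other protein-coding genes were within 20 kb of it.
Centre of the peak upstream of Tomm40l, chr1:173152669-173152868: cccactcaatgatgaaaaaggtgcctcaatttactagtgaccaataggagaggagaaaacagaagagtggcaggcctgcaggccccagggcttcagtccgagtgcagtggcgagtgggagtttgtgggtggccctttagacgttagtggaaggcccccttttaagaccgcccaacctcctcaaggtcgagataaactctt

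Fcgr4 (ENSMUSG00000059089.4, chr1:172949051-172959892, plus strand), the activating IgG receptor next to Fcgr2b and Fcgr3, had the largest number of peaks and low scores. Its start peak, chr1:172948882-172949172, had a score of 5.26, and its centre lay 24 bp upstream of the annotated start. Of its 2 hexamers, printed above, 1 lay before the start and 1 after it, and the peak also held GAGGAAGT and the paired GAAA element of the ISRE type, read by interferon regulatory factors. A further peak 1177 bp upstream, chr1:172947740-172948009, had a score of 5.36 and 1 hexamer 27.5 bp from its centre. These scores were higher than 11.4% and 12.4% of the list. Fcgr4 and Fcer1g were the 2 of 6 genes with a peak centre within 200 bp of a start site, beside 16.9% of all protein-coding genes.

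In RefSeq promoter sequences of GRCm38.p6, which take 300 bases around each gene start, TGTGGT was found at these genes only among the 6. These sequences overlap the start peaks of both genes, so the matches are not independent of the hexamers printed above. The Fcgr4 promoter held 2 and the Fcer1g promoter 1, and 16.8% of the 32851 promoters in the table held at least 1. TGCGGT was found once in each of the 2 promoters of Fcgr3, and in 6.45% of all promoters. No motif match in a window shows a site in use, and the lack of a match shows only that these letters were not in it.

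Downstream of Fcgr4 lay 2 weak peaks, in the 21407 bp between the ends of Fcgr4 and Fcgr3, where no other protein-coding gene is annotated. Fcgr3 (ENSMUSG00000059498.6, chr1:172981300-172995066, minus strand) encodes an activating low-affinity IgG receptor, and its 3′ end faces that of Fcgr4. The first peak, chr1:172963977-172964469, had a score of 4.48 and was centred 4331 bp past Fcgr4 and 17077 bp past Fcgr3. The second, chr1:172968019-172968313, had a score of 4.79 and was centred 8274 bp past Fcgr4 and 13134 bp past Fcgr3. Both had a start of Fcgr4 as their nearest protein-coding start, and they were the only peaks of Fcgr3, whose own start, as the end of the annotated gene, lay 26900 bp from the closer one.

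These 2 peaks shared a sequence feature that was noticed in their sequence and searched for afterwards. Each held a match to the consensus of the B box, an internal promoter element of tRNA genes that the factor TFIIIC binds. In the sequences below, capitals mark the B box or its reverse complement and, in the first, also TGTGGT and the reverse complement of TGCGGT.
First peak between Fcgr4 and Fcgr3, chr1:172964074-172964322: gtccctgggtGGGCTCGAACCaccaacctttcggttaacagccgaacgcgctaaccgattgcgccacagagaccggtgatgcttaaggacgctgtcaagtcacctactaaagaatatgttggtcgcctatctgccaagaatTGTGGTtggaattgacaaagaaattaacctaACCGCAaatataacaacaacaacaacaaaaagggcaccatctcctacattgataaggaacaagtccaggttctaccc
Second peak between Fcgr4 and Fcgr3, chr1:172968066-172968265: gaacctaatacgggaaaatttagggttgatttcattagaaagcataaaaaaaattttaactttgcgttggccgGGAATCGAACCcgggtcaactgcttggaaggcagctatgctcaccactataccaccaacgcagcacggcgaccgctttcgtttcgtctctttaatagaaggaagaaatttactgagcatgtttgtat
The B box was found in 2 of the 13 receptor peaks, in 57 of the 15121 peaks (0.377%), and in 0.169% of windows of equal width 10 kb downstream of the peaks. The window of Fcgr3, its body with 20 kb on each side, held 20 matches, or 3.72 per 10 kb, and the overlapping window of Fcgr4 held 5, or 0.983 per 10 kb. The genome held 0.0260 per 10 kb, and the windows of Fcgr1, Fcgr2b, Fcer1g and Fcgrt held none. A further peak with a B box, chr1:173033040-173033361 with a score of 6.57, lay 38134 bp upstream of Fcgr3, outside the reach used. Nuclear tRNA genes are not listed in the annotation used, so whether these matches belong to tRNA genes was not tested. A fixed form of the other internal element, the A box, was in none of the 13 peaks and in 1.44% of the list. It was in 3.05% of the downstream windows, so this form was not more frequent in peaks. Its lack in the 13 peaks therefore does not bear on whether they hold tRNA genes.

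**Figure D2:**
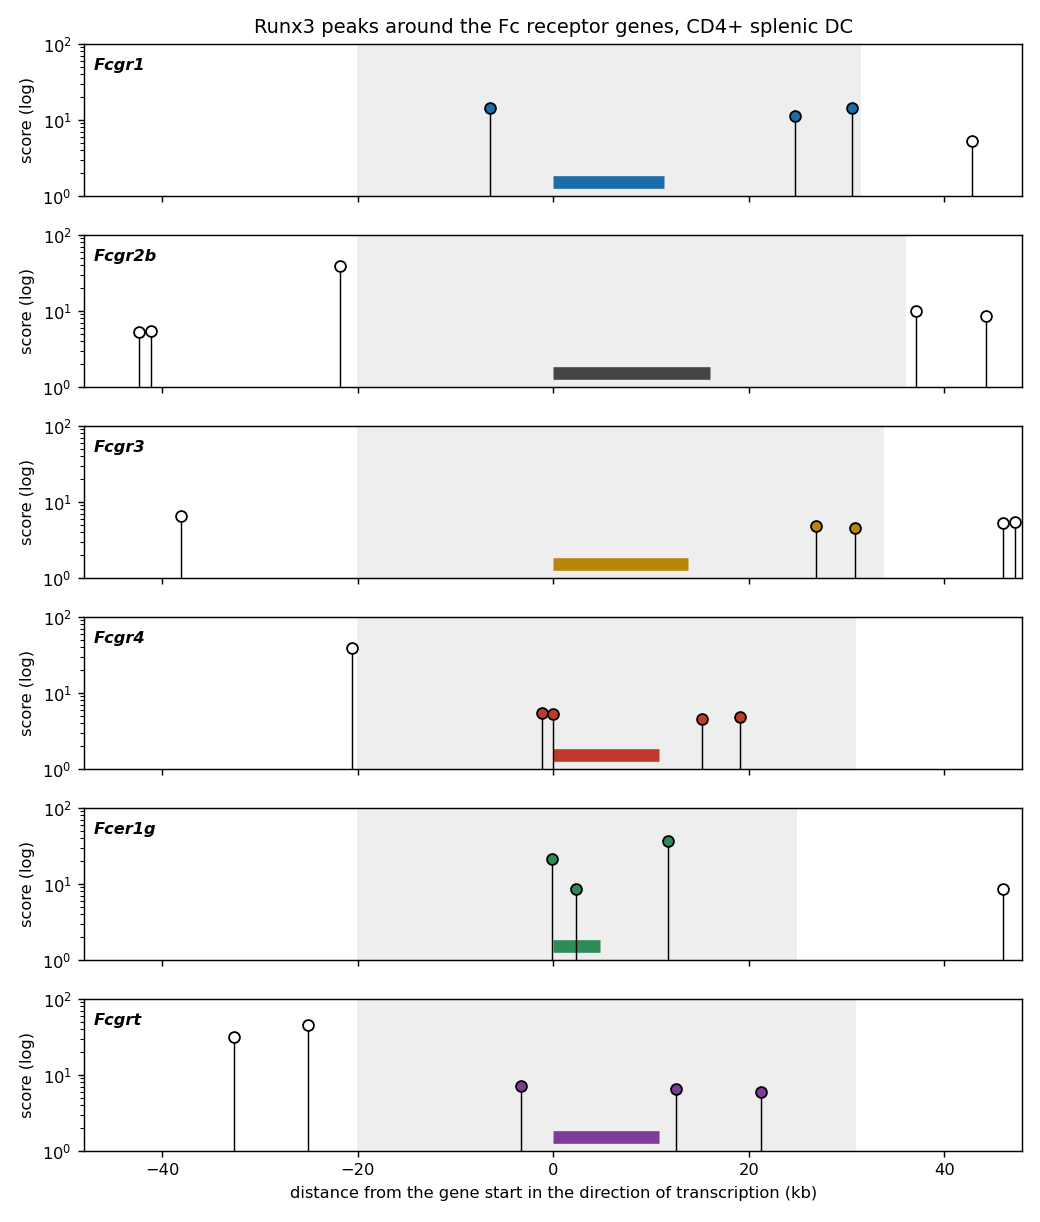
Each panel is 1 receptor gene, with the distance from its start in the direction of transcription in kb and the MACS2 score on a log axis. The coloured bar is the gene body, grey marks the body with 20 kb on each side, filled points are peaks assigned to the gene, and open points are peaks beyond that reach. Fcgr2b has no filled point, and the open point at 39.1 lies just outside the grey area of both Fcgr2b and Fcgr4.

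Fcgr2b (ENSMUSG00000026656.9, chr1:172890689-172906678, minus strand), the inhibitory receptor, was the 1 gene without a peak within 20 kb, although its window held 50 copies of TGTGGT. The limit of 20 kb decided this. The nearest peak on the upstream side, chr1:172928201-172928754, was centred 21799 bp upstream of the gene and had a score of 39.1, higher than 88.7% of the list and above that of any peak assigned to a receptor gene. It lay 20574 bp upstream of Fcgr4, whose start was its nearest protein-coding start. The 42372 bp between both genes hold no other protein-coding gene. The peak held 1 TGTGGT 22.5 bp from its centre and 2 TGCGGT. The peak closest to the gene body, with a score of 9.84, lay on the other side, 21115 bp past the gene and 11860 bp upstream of Fcrla, which encodes an Fc receptor-like protein of B cells. Just inside the limit was the peak 19263 bp downstream of Fcgr1, described below. Capitals mark TGTGGT and TGCGGT, or their reverse complements, in the centre of the strong peak.
Centre of the peak between Fcgr2b and Fcgr4, chr1:172928377-172928576: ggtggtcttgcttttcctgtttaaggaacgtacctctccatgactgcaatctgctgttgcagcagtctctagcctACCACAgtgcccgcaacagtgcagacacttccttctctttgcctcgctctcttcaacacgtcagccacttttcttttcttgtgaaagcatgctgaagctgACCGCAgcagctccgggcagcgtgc

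Fcgr1 (ENSMUSG00000015947.5, chr3:96086832-96098179, minus strand) encodes the high-affinity IgG receptor. Its 3 peaks had scores of 14.2, 14.2 and 11.2, and the higher value exceeded 55.8% of the list. None held TGTGGT, though the window of Fcgr1 held 60 copies, the most of the 6 genes, and each peak held 1 TGCGGT. The upstream peak, chr3:96104523-96104894, was centred 6529 bp before the start of Fcgr1, with no other protein-coding gene within 20 kb. The other 2 lay beyond the 3′ end and next to histone genes. The peak chr3:96073326-96073680, 13329 bp past Fcgr1, was 141 bp upstream of the start of Hist2h2bb, and the peak chr3:96067348-96067790, 19263 bp past it, was 335 bp upstream of that of Hist2h4. Capitals mark TGCGGT or its reverse complement in the 2 peaks at which it fell in the central 200 bp.
Fcgr1, centre of the upstream peak, chr3:96104608-96104807: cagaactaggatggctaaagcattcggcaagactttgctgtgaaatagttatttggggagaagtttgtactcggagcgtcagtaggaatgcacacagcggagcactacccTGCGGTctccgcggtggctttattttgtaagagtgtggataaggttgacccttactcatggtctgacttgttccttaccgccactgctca
Centre of the peak upstream of Hist2h4, chr3:96067469-96067668: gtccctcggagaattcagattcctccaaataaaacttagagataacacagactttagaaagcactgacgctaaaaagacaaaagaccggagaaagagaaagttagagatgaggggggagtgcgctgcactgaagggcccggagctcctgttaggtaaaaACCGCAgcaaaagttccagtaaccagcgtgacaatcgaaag

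Fcgrt (ENSMUSG00000003420.7, chr7:52348363-52359192, minus strand), the neonatal Fc receptor, had 3 peaks of low score. The upstream peak, chr7:52362294-52362789, had a score of 7.20 and was centred 3349 bp before the start. It held 2 hexamers separated by a single base, printed below. The peak chr7:52346451-52346771, with a score of 6.57 and no hexamer of either kind, lay 1752 bp past the 3′ end of Fcgrt, in intron 2 of Rcn3 and 484 bp past the start of that gene, which encodes a calcium-binding protein of the endoplasmic reticulum. The third peak, chr7:52337716-52338088, had a score of 5.96 and 2 hexamers, and lay 10461 bp past Fcgrt and 9193 bp past the start of Rcn3. Stronger peaks lay beyond the reach, with a score of 45.2 in Rpl13a, a ribosomal protein gene 25152 bp upstream, and 31.4 at Flt3l, which encodes the DC growth factor Flt3 ligand, 32684 bp upstream. B2m, whose product is the partner of Fcgrt, had 2 peaks, the stronger with a score of 34.2.
Fcgrt, centre of the upstream peak, chr7:52362441-52362640: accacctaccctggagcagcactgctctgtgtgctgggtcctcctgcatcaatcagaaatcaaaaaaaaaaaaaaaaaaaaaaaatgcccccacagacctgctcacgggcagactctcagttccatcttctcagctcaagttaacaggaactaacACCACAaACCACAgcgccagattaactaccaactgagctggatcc
Fcgrt, centre of the second downstream peak, chr7:52337802-52338001: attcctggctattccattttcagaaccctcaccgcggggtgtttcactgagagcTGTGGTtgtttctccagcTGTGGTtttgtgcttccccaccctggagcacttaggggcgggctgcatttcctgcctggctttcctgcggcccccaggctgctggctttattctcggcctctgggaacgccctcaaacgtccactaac

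The nearest protein-coding start was that of a receptor gene for 8 of the 13 peaks and that of Tomm40l, Hist2h4, Hist2h2bb or Rcn3 for the other 5. The 3 receptor peaks without TGTGGT or TGCGGT were the one upstream of Tomm40l, the one in Rcn3 and the second peak between Fcgr4 and Fcgr3.

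The 13 peaks held TGTGGT about as often as the list did. TGTGGT was found in 7 of them (53.8%, Wilson 95% interval 29.1% to 76.8%), in 54.0% of all peaks and in 30.9% of windows of equal width 10 kb downstream. The share varied with the receptor peaks counted. It was 85.7% of the 7 within 5 kb and 75% of the 8 nearest to a receptor start. Of the 4 at or above the list median score it was 25%. TGCGGT was found in 4 (30.8%, interval 12.7% to 57.6%), in 20.1% of all peaks and in 3.57% of downstream windows. GAGGAAGT was in 2 receptor peaks, those at the starts of Fcgr4 and Fcer1g, in 14.6% of the list and in 2.79% of downstream windows. The ISRE type element was in 2, the Fcgr4 start peak and the peak near Hist2h4. It was in 6.48% of the list and in 5.81% of downstream windows, so it was hardly more frequent in peaks. TGANTCA, the AP-1 element, and TGACGT were in none, beside 13.2% and 11.0% of all peaks, and 0 of 13 allows a share of up to 22.8% at this count. Their shares in downstream windows were 12.1% and 4.19%. Matches on either strand anywhere in the peak were counted, and the intervals cover counting error only. The receptor peaks had widths of 270 to 623 bp (median 373 bp, against 406 bp for the list). They held 1 to 23 CpG with a median of 12, against 8, and a median of 50.0% G and C, against 50.7%.

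Most copies of the hexamer around the receptor genes lay outside peaks. Peaks covered 0.264% of the sequenced genome and held 0.620% of its TGTGGT. The density of TGTGGT in the windows ran from 7.59 per 10 kb at Fcer1g to 11.7 at Fcgr1, and the genome had 7.74. Of these copies, 4 of 42 at Fcgr4, 4 of 50 at Fcgrt, 3 of 34 at Fcer1g and 1 of 57 at Fcgr3 lay in a peak, and none at Fcgr1 or Fcgr2b. The 13 distinct peaks held 11 copies.

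Because reads were kept only where they aligned to 1 place, sequence that recurs in the genome could give few or no reads. The share of 50-base stretches that occur once, by exact match on both strands, was 98.3% in the window of Fcer1g, 95.4% at Fcgr4, 95% at Fcgrt, 89.6% at Fcgr1, 83.5% at Fcgr2b and 63.7% at Fcgr3, and 88.5% at positions spaced evenly over the genome. Fcgr3 stood lowest, and the loss lay upstream of it and at its start. Of the 54 bins of 1 kb in its window, 21 were under 50% unique. Fcgr2b had 9 such bins of 56 and Fcgr1 4 of 51, and the other 3 genes had none. Fcgr2b and Fcgr3, whose proteins have alike IgG-binding domains, shared 141 stretches, which was 0.883% of the Fcgr2b body and 1.03% of the Fcgr3 body, and neither shared more than 5 with Fcgr4. A lack of peaks at the start of Fcgr3 therefore covers sequence that was in large part not measurable, whereas the body of Fcgr2b was 93.4% unique. Of the receptor peaks, 11 were entirely unique, and the 2 with a B box were 94.3% and 90.8% unique.

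**Figure D3:**
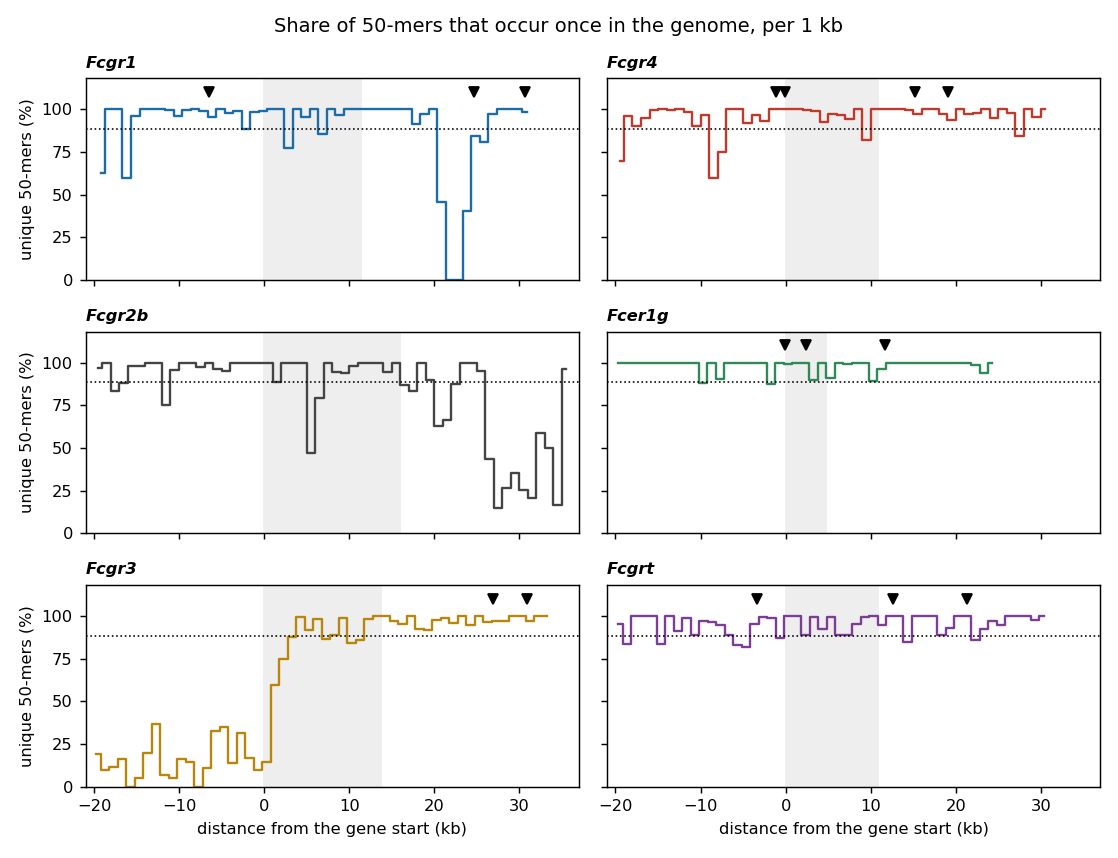
Each panel is 1 receptor gene and gives, per 1 kb, the percent of 50-base stretches that occur once in the genome against the distance from the gene start in kb, with the gene body in grey, peaks as triangles and the genome value of 88.5% as a dotted line. The line of Fcgr3 stays below 50% from 20 kb upstream to the gene start, that of Fcgr2b falls downstream of the gene, and those of Fcgr4, Fcer1g and Fcgrt stay above 50% throughout.

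Other genes of Fc receptor biology were counted by the same rule. Of 12 other Fc and Fc-like receptor genes, 7 had a peak (58.3%), beside 50.4% of all protein-coding genes. The median strongest score was 36.6 among the 7, against 7.20 among the 5 of 6 receptor genes and 18.1 among all protein-coding genes with a peak. Fcer2a, the low-affinity IgE receptor, had 6 peaks with a strongest score of 61.3. Milr1, an inhibitory mast cell receptor annotated as Gm885, had 8 and a strongest score of 36.6, the median given above. The centre of that peak lay 37523 bp from the gene start, past the 3′ end and barely inside the 20 kb limit. In the Fcrl family of Fc receptor-like genes, Fcrl1 had 2 peaks up to 51.1, Fcrls 2 up to 38.1 and Fcrl5 1 of 23.2. Fcrla had 2 up to 9.84 and Fcrlb 2 up to 8.49. The peak of 8.49 was counted for both, and lay 4644 bp upstream of the start of Fcrla and 19286 bp from that of Fcrlb. No peak was called at Fcer1a, the binding chain of the high-affinity IgE receptor, or at Fcamr, Pigr, Trim21 and Faim3, which bind IgM, IgA or IgG.

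Of 22 kinases, phosphatases and adaptors that act downstream of the receptors, 20 had a peak (90.9%), beside 50.4% of all protein-coding genes. They had 88 distinct peaks and a median strongest score of 28.1. A peak at or above the upper quartile was found at 14 of them (63.6%), at 1 of 6 receptor genes and at 20.2% of all protein-coding genes. Among the kinases and lipases, Syk, which binds the ITAM of the gamma chain and is annotated as Sykb, had 8 peaks up to 24.1. Fgr had 2 up to 25.8, Plcg2 1 of 39.1 and Pik3cd 7 up to 24.9. Of the phosphatases that act with the ITIM of Fcgr2b, Inpp5d (SHIP1) had 6 peaks up to 28.7, the strongest 115 bp from a start, and Ptpn6 (SHP-1) had 6 up to 28.6. Among adaptors and regulators of the cytoskeleton, Rac2 had 5 peaks up to 77.4, Cbl 3 up to 51.5, Grb2 9 up to 44.97, Vav1 7 up to 43.9, Vav3 6 up to 40.1, Gab2 1 of 33.2 and Lcp2 5 up to 27.6. Btk and Dok1 had none. These bodies differ in length from those of the receptors, which the counts do not take into account.

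Of 8 adaptors and chains with an ITAM or a related tyrosine motif, 7 had a peak (87.5%), beside 50.4% of all protein-coding genes. Cd3d, Cd3e and Cd3g, chains of the T cell receptor complex, shared 1 peak with a score of 99.6. Tyrobp, the ITAM adaptor of myeloid receptors, and its neighbour Hcst shared a strongest score of 15.3.

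The same counts were made for 2 other receptor families of DC, beside the 83.3% of Fc receptor genes and 50.4% of all protein-coding genes with a peak. Of 12 Toll-like receptor genes 10 had a peak (83.3%), with a median strongest score of 11.8, and Tlr3 (36.6), Tlr12 (32.3) and Tlr2 (23.4) reached the upper quartile. Of 16 genes for uptake of dead cells and their ligands 10 had a peak (62.5%), with a median strongest score of 23.7, and Axl (72.7), Itgb3 (46.2), Timd4 (32.3), Scarf1 (32.3) and Mertk (26.7) reached it. Over all peaks and not only the strongest, the 19 peaks of the Toll-like receptor genes had a median score of 7.20. That was the value of the 13 Fc receptor peaks, so low scores were not particular to the Fc receptor genes. The 26 peaks of the uptake genes had a median of 18.1. No difference between these lists was tested.

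**Figure D4:**
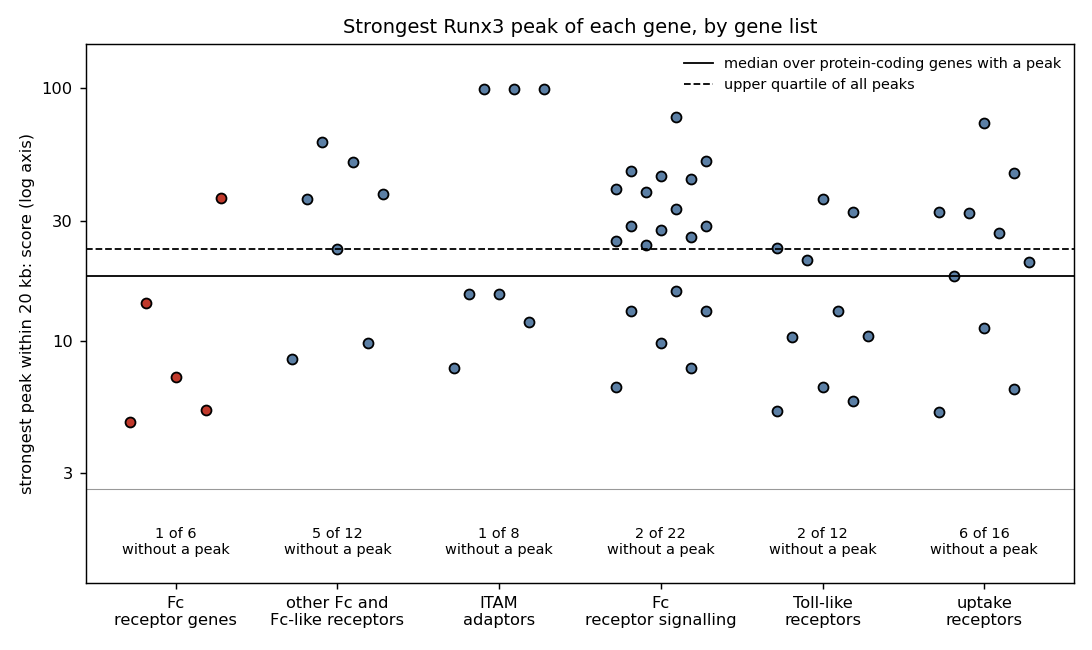
Each point is the strongest score within 20 kb of 1 gene, on a log axis, for the Fc receptor genes (red) and 5 other lists (blue), and the number of genes without a peak stands below. The solid line is the median of 18.1 over protein-coding genes with a peak and the dashed line the upper quartile of 23.2 over all peaks. Of the red points only that of Fcer1g, 36.9, is above either line.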

How the data were processed

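Runx3 ChIP-seq of sorted splenic CD4+ DC comprised 2 immunoprecipitates and 2 input controls, from chromatin sonicated to about 300 bp and read over 50 bp. The authors aligned reads uniquely to mm9 with bowtie and called peaks with MACS2 on the pooled samples. CASAVA 1.8 is named in the submitters' processing notes. The versions of bowtie and MACS2 and the threshold are not given in the sources used here. The deposited score is the value MACS2 wrote for each peak, on a scale the authors do not state, and was used only to rank peaks. Weak binding can go uncalled, so no peak means none called at this depth; depth per sample was not analysed here. No column of other samples was left out (0).

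Genes came from GENCODE M1 and sequence from NCBIM37, the assembly of mm9, with positions counted from 1. Peaks were assigned by their centre, and promoters came from RefSeq (GRCm38.p6). Motifs were searched on both strands, beside windows 10 kb downstream of each peak, as wide as the peak. Uniqueness was the exact match of every 50-mer in the genome, and for the genome 1 position every 10 kb. The 95% intervals on shares (Wilson) express counting error alone.

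The named genes are the 6 members with every peak, all other Fc and Fc-like receptor genes, genes of the other lists with a peak at or above the upper quartile score, and genes whose start is nearest to a receptor peak; 1 gene under this rule is not reported here. Tyrobp, Hcst, Btk, Dok1, Rpl13a and Flt3l were named after their values were seen. The members and lists were chosen with earlier results of these data known, and the B box and A box were searched after the peak sequences were seen. The alternatives were reaches of 5, 10 and 50 kb, any base of the peak, and score minimums at the list median and upper quartile. Others were peaks closer than 300 bp joined, the nearest protein-coding start only for peaks within 20 kb, and motifs in the central 200 bp. The code was tested on simulated data. It ran in Python 3.11.15 with matplotlib 3.10.9, numpy 2.4.6 and scipy 1.17.1.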

Additional observations from a re-analysis of the deposited data

How the results depend on the processing

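The 5 genes, 13 peaks, median score of 7.20 and TGTGGT share of 53.8% were recomputed under each alternative. A reach of 5 kb left 3 genes, 7 peaks and a TGTGGT share of 85.7%. A reach of 50 kb gave 22 peaks and took in Fcgr2b, so that all 6 genes had one. The share of all protein-coding genes with a peak, 50.4%, is for the 20 kb reach. No such share is given for the other reaches, so the gene counts there describe the rule and not the family. Peaks at or above the list median left 2 genes, 4 peaks, a median score of 17.8 and a share of 25%. Peaks at or above the upper quartile left 1 gene, 1 peak, a score of 36.9 and a share of 0%. Counting a peak within 20 kb only for its nearest protein-coding start left 8 peaks at 4 genes, with a TGTGGT share of 75% (6 of 8). The peak with a score of 39.1, nearest to the start of Fcgr4 but 20574 bp from it, stayed outside this count. In all, 13 values moved and 20 were counted as moving less. The 20 include the 75%, which lay inside the main interval of 29.1% to 76.8%. They also include 4 genes and 10 peaks within 10 kb, and a TGTGGT share of 46.2% in the central 200 bp. Counting any base of a peak, or joining peaks closer than 300 bp, gave the same values.

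No paired analysis was possible because the list is 1 call on the pooled samples and holds no value per replicate, which also leaves no replicate to leave out. Depth sets how weak a peak can be called, and the receptor peaks lie mostly in the lower part of the scores, so that a minimum on the score removed most of them.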
